A study of Mus musculus with 10 samples.

Results

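Mouse CD8 T cells that had gone through electroporation as controls (Mock) were compared with cells that had not been electroporated (NoEp), gene by gene, to show how the transcriptome of the electroporated controls differed 24 h after the procedure. The comparison rests on 4 of the 10 libraries of the study, 2 for each group, and on the 15777 genes with enough counts to be tested out of 55359 gene identifiers. The members are all of these genes, which were kept by a filter on counts and not by their difference between Mock and NoEp. Both groups came from spleen cells of pmel-1 mice, whose transgenic T cell receptor recognises the melanoma antigen gp100. The cells were activated for 48 h with hgp100 and kept for another 48 h in hIL-2. Every group but NoEp was then electroporated with mRNA. The sample annotation gives 24 h from this step to RNA extraction for all groups, NoEp included. NoEp carries the label WT as genotype and as treatment. Mock carries the label Mock as genotype and mRNA electroporated as treatment, and the sources used here do not give the mRNA that Mock received, if any. The other 3 groups received cytokine mRNA: DRIL18 codes for a decoy-resistant form of IL-18, IL12 for IL-12 as a single chain, and the last group, called mixture here, had both. The labels number the libraries of a group as biological replicates and do not say whether they came from separate animals or cultures. The p-values set the difference between Mock and NoEp against the spread of replicates in all 10 libraries. That spread may be technical.

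Electroporation opens pores in the plasma membrane for a short time with an electric pulse, so that mRNA can enter the cytosol. Ions and small molecules cross the same pores until the membrane reseals, and RNA in the cytosol can be read by sensors that switch on interferon genes. Activated T cells kept in IL-2 are dividing blasts. MYC and mTOR drive their growth, glycolysis and protein synthesis, whereas the transcription factors FOXO1, KLF2 and TCF1 (encoded by Tcf7) keep resting T cells quiescent, with genes for lymph node homing and for survival on IL-7.

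The 4 libraries held 31281944 and 34992530 counts in NoEp and 34713321 and 33010930 counts in Mock, with 20798 to 21214 genes detected. The libraries matched the labelled cell type: Trbv14, the variable segment of the pmel-1 receptor chain, took 95.2% to 97.3% of the counts of all Trbv segments in the 10 libraries, and none of the 15 CD8 T cell markers was under 1 CPM. In the column names of the deposited counts the mark bis, which the sources used here do not explain, stands on both NoEp libraries and on neither Mock library. Within these 4 libraries, what the mark stands for and electroporation cannot be told apart. DRIL18 and IL12 each have 1 library with the mark and 1 without it, so the mark could be fitted as a covariate across the 10 libraries. That fit takes its estimate from these 2 groups alone, in which the mark falls together with the replicate number, and its counts are given below beside those of the fit without it for the lists with several calls.

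Electroporated cells differed from the others by many small steps. At an adjusted p under 0.05 in edgeR's quasi-likelihood test with Benjamini-Hochberg adjustment over all 15777 genes, which gives every adjusted p below, 1102 genes (6.98%) were called. Of these, 527 (3.34%) were higher in Mock and 575 (3.64%) lower. The median size of a called change was 0.20 on the log2 scale. Only 18 called genes differed by at least 2-fold, 8 of them higher and 10 lower, and 800 differed by less than 1.2-fold. Both Mock libraries lay on the same side of both NoEp libraries for each of the 1102 genes. The log2 difference between the means of Mock and NoEp had an SD of 0.11 over 7675 well-measured genes. For the difference of the 2 Mock libraries the SD was 0.076, and for that of the 2 NoEp libraries 0.087. The first value is of means of 2 libraries and the others are of single libraries, which vary more than means. They are thus unlike measures. The genes called higher together took 95655 CPM (counts scaled to library size) in NoEp and 107992 CPM in Mock, and the genes called lower 86150.2 and 75325 CPM.

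**Figure D1:**
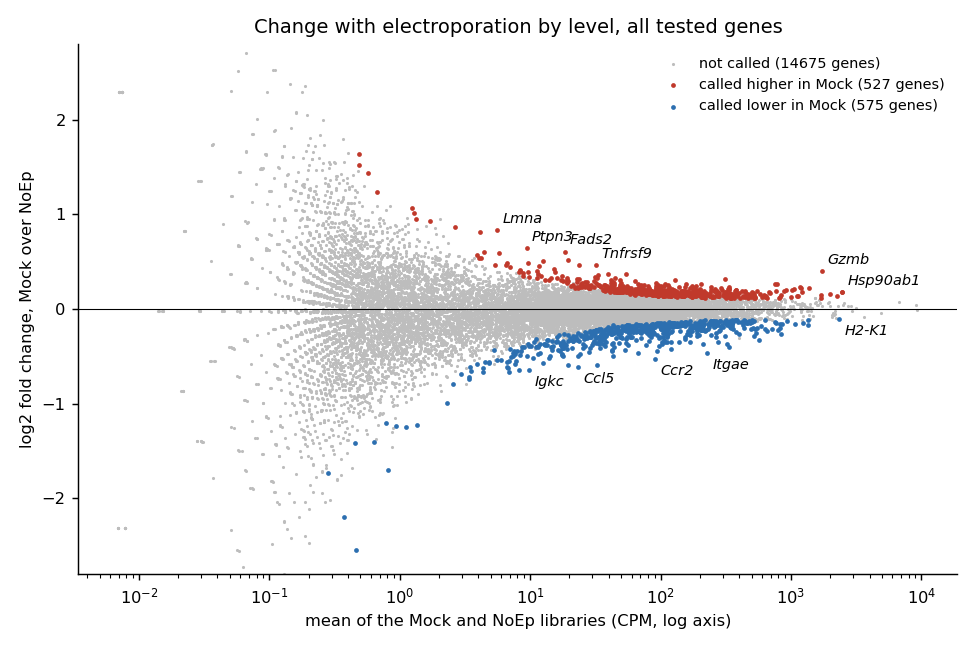
Mean level of each tested gene in the 4 libraries (CPM, log axis) against its log2 fold change of Mock over NoEp. Red points are the 527 genes called higher in Mock, blue points the 575 called lower, grey points the rest, and 42 genes lie beyond the vertical axis; called changes at high levels are small, and those of at least 2-fold are at low levels.

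How many genes passed depended on the level and on single libraries. Among genes with a mean over 100 CPM 21.5% were called, against 8.18% between 10 and 100 CPM, 1.96% between 1 and 10 CPM and 0.371% under 1 CPM. Of the 2363 genes over 100 CPM 273 were called higher and 236 lower. The count in a list of abundant genes thus has a higher share to be read against. Where no share is given beside a list below, that over all genes is 3.34% called higher and 3.64% called lower. For lists of abundant genes, the 273 higher and 236 lower of 2363 are the nearer share. Without Mock replicate 1 there were 242 calls, without Mock replicate 2 there were 349, without NoEp replicate 1 there were 752 and without NoEp replicate 2 there were 350. In these fits the lone library of a group is assumed to vary like the others. In all 4 of them and in the full fit 147 genes were called (0.932%), 55 higher (0.349%) and 92 lower (0.583%). These are named repeat-called below. With the mark bis as a covariate 172 genes were called (1.09%), 64 higher and 108 lower, and 156 of them were among the 1102. All 147 repeat-called genes kept their sign in that fit, and 88 of them were called in it. The split between directions moved with the values used, since limma-trend on the log2 values that the authors deposited called 641 genes higher and 442 lower.

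**Figure D2:**
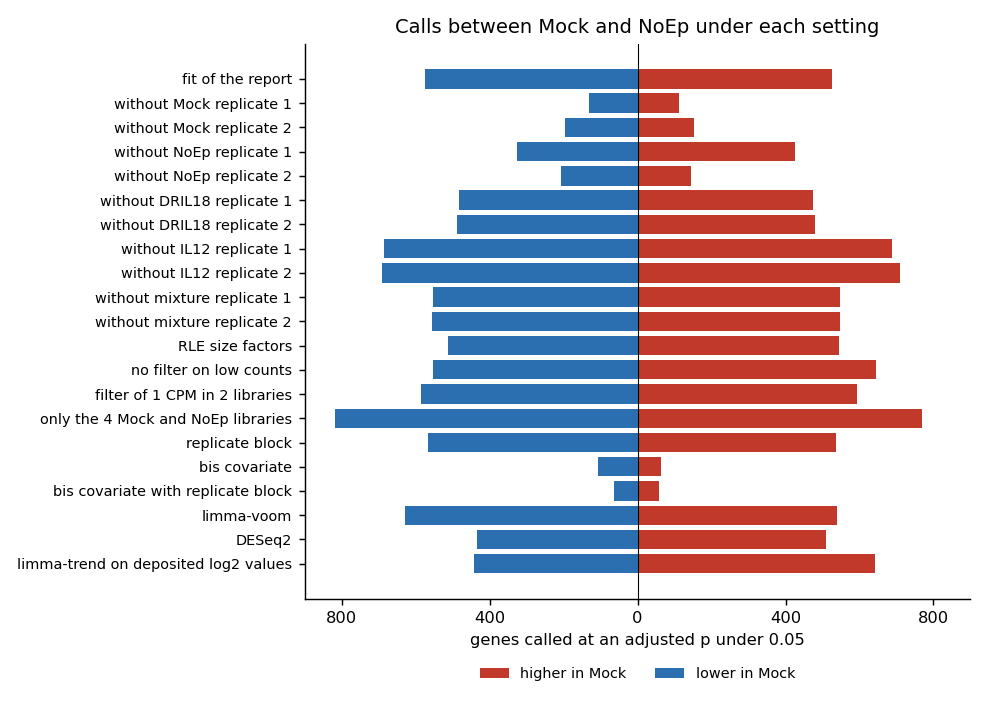
Number of genes called between Mock and NoEp (horizontal axis, genes; red to the right higher in Mock, blue to the left lower) for each fit that was run. The bars are shortest with the mark bis as a covariate (172 genes, or 121 together with a replicate block) and, among the fits without the mark, without Mock replicate 1 (242 genes).

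The 12 largest repeat-called rises with at least 5 CPM in the higher group came from several kinds of genes. Lmna, which encodes the lamins A and C of the nuclear envelope, had 4.43 and 3.65 CPM in NoEp and 7.08 and 7.26 CPM in Mock. It rose 1.78-fold (log2 fold change 0.83, SE 0.14, adjusted p = 0.000507). Ptpn3, a protein tyrosine phosphatase, had 7.28 and 7.35 CPM in NoEp and 11.1 and 11.8 CPM in Mock and rose 1.56-fold (adjusted p = 0.000363). Fads2, a fatty acid desaturase, had 13.8 and 15.4 CPM in NoEp and 20.5 and 23.9 CPM in Mock and rose 1.52-fold (adjusted p = 9.74e-05). Repeat calls and libraries that do not overlap were conditions of this choice. For these 3 genes the gap between the groups was wider than the spread of either pair, which the choice favours and which adds no support. The beta tubulin Tubb6 (log2 fold change 0.51), the mitochondrial protein Chchd10 (0.51), the zinc finger repressor Zbtb32 (0.37), the reduced folate carrier Slc19a1 (0.32) and Gm4951 (0.42) were among the 12, with Asns, Tnfrsf9 and Gzmb, which are described with their groups below.

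The 12 largest repeat-called falls held genes of cell adhesion and chemokine signalling. Itgae encodes CD103, the integrin chain that holds T cells at epithelia, and had 257 and 273 CPM in NoEp and 194 and 191 CPM in Mock. It fell by 0.46 on the log2 scale (SE 0.042, adjusted p = 6.53e-08). The chemokine gene Ccl5 had 28.1 and 28.3 CPM in NoEp and 18.8 and 18.2 CPM in Mock and fell by 0.61 (adjusted p = 0.00017). Ccr2, the receptor for Ccl2, had 100.3 and 113 CPM in NoEp and 71.8 and 76.5 CPM in Mock and fell by 0.53 (adjusted p = 2.49e-07). Repeat calls and libraries that do not overlap were conditions of this choice, so neither adds support for these 3 genes. Ggt1, an enzyme of glutathione breakdown, fell by 0.59, Hsd11b1, which regenerates active glucocorticoid, by 0.45, the GABA receptor subunit Gabbr1 by 0.45, and Kctd12, an auxiliary subunit of the same receptors, by 0.47. Tcp11l2 fell by 0.50, Gm45552 by 0.59, BC043934 by 0.64, and Igkc, the constant region of the kappa light chain of B cells, by 0.64. Ifi213, a member of the interferon-inducible Ifi200 family, is described with that family.

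**Figure D3:**
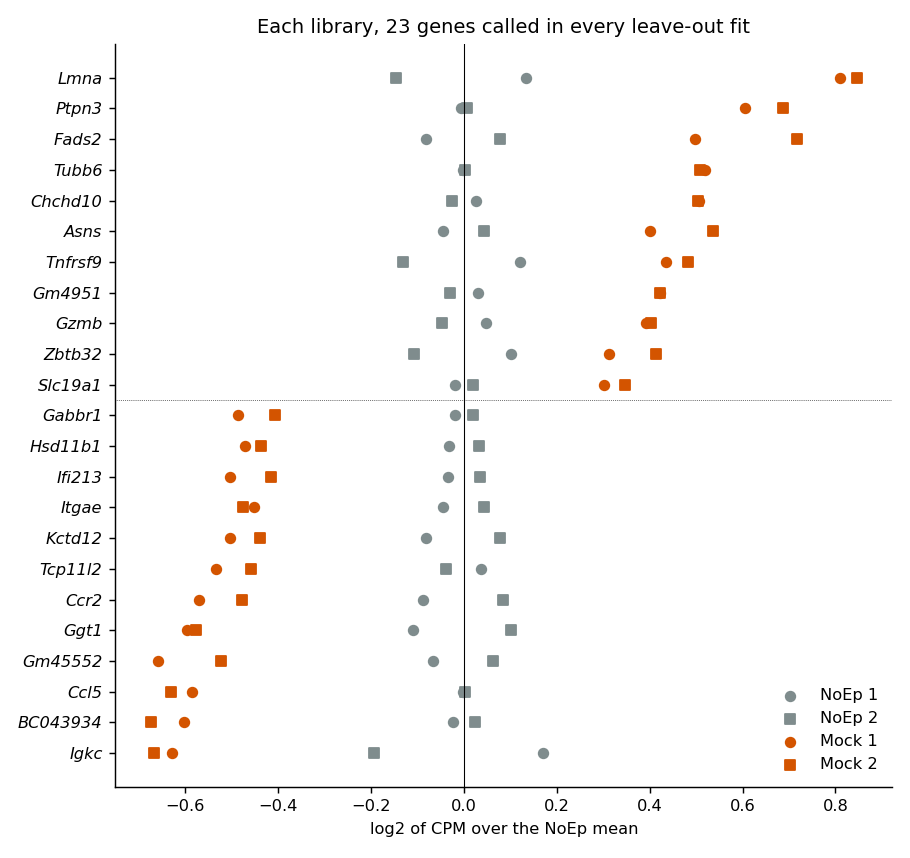
Log2 of the CPM of each NoEp (grey) and Mock (orange) library over the NoEp mean, for 11 of the 12 largest rises and the 12 largest falls that were called in the full fit and in all 4 leave-out fits. For each of the 23 genes plotted the 2 Mock libraries lie apart from the 2 NoEp libraries, which was a condition of the choice. The widest replicate spread was in NoEp, for Igkc and Lmna.

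Genes of the cell cycle and of DNA replication were higher in electroporated cells. Of the 56 tested members of this list 30 rose and 0 fell, and 54 had a log2 fold change above 0. Called higher were 3.34% of all genes, and 273 of the 2363 genes over 100 CPM. The median was 0.14, against -0.004 over all tested genes, and the members called had changes between 0.11 and 0.28. The summed level of the list was 13705 and 13975 CPM in NoEp and 15033 and 14912 CPM in Mock. Rfc3, a subunit of the clamp loader of the replication fork, rose 1.21-fold, from 37.1 and 38.2 to 44.97 and 46.4 CPM (adjusted p = 0.00175), and was repeat-called. The replication factors Gins1 (log2 fold change 0.23), Gins2 (0.22) and Cdc45 (0.21), which form the replicative helicase with the MCM proteins, and cyclin E2 (Ccne2, 0.22) were the other 4 with the largest rises. Each of these 4 lost its call in at least 1 leave-out fit. The list had 3 repeat-called members, and it had 6 calls without Mock replicate 1, 15 without Mock replicate 2, 20 without NoEp replicate 1 and 13 without NoEp replicate 2. With the mark bis as a covariate 2 members were called and the median was 0.12.

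Genes of ribosome production and of translation moved the same way. In the MYC network and ribosome biogenesis list 18 of 38 members rose and 1 fell, with a median of 0.16. Npm1, the nucleolar protein nucleophosmin, had 991 and 959.7 CPM in NoEp and 1132 and 1128 CPM in Mock and rose 1.16-fold (log2 fold change 0.21, SE 0.04, adjusted p = 0.00093). Nolc1, a nucleolar chaperone, rose 1.17-fold, and Srm, the spermidine synthase, 1.197-fold. Myc itself had 132 and 129 CPM in NoEp and 145 and 147 CPM in Mock, and its log2 fold change of 0.16 passed (adjusted p = 0.0246) but did not pass in any of the 4 leave-out fits (adjusted p = 0.134 without Mock replicate 1, 0.175 without Mock replicate 2, 0.0593 without NoEp replicate 1 and 0.202 without NoEp replicate 2). With the mark bis as a covariate Myc was called at 0.26 (adjusted p = 0.019). The 1 member that fell was Mxd4, which encodes a repressor that competes with MYC for their shared partner MAX. It had 137 and 138 CPM in NoEp and 104 and 101 CPM in Mock and fell by 0.43 on the log2 scale (adjusted p = 3.17e-06), the largest change of the list, and was repeat-called.

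Of 29 translation factors, 9 rose and 1 fell (median 0.11). The helicase Eif4a1 had 875 and 842 CPM in NoEp and 989 and 979 CPM in Mock and rose 1.146-fold (adjusted p = 0.000613), and Eif3b rose 1.16-fold (adjusted p = 0.000518). Pdcd4, the inhibitor that binds the EIF4A helicases, was the member that fell, from 176 and 166 to 135 and 138 CPM (log2 fold change -0.32, adjusted p = 8.06e-06). In both lists the 1 member that fell encodes an inhibitor, while the part of the other members in growth follows from how the lists were drawn up. Without Mock replicate 1, Mock replicate 2, NoEp replicate 1 and NoEp replicate 2 the rises numbered 7, 8, 20 and 6 in the ribosome biogenesis list and 3, 5, 11 and 3 among the translation factors. With bis as a covariate they numbered 1 and 0, while Mxd4 (-0.49) and Pdcd4 (-0.30) were called in that fit too.

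Many chaperones of the cytosol and mitochondria rose. Of 31 heat shock and chaperone genes 17 rose and 0 fell, with a median of 0.16. This compares with 3.34% of all genes and 273 of the 2363 genes over 100 CPM called higher. The summed level of the list was 9644 and 9221 CPM in NoEp and 10604 and 10362 CPM in Mock. The 17 were led by Hsp90aa1, the inducible cytosolic HSP90, with 698 and 668 CPM in NoEp and 835 and 804 CPM in Mock (log2 fold change 0.26, SE 0.037, adjusted p = 3.85e-05). Hspd1, the mitochondrial chaperonin, had 319 and 301 CPM in NoEp and 363 and 363 CPM in Mock and rose 1.17-fold (adjusted p = 0.000705). Hspa9, the mitochondrial HSP70, and Cct3, a subunit of the cytosolic chaperonin that folds actin and tubulin, rose 1.17-fold and 1.148-fold. Hspa8, the constitutive HSP70, was at 1634 and 1525 CPM in NoEp and 1734 and 1643 CPM in Mock, and its log2 fold change of 0.096 did not pass (adjusted p = 0.208). Repeat-called members numbered 5. The rises numbered 7 without Mock replicate 1, 7 without Mock replicate 2, 15 without NoEp replicate 1 and 6 without NoEp replicate 2, and 1 with bis as a covariate.

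Genes of folding in the endoplasmic reticulum rose by small steps. In the unfolded protein response list 10 of 29 members rose and 0 fell, with changes of 0.13 to 0.18, and none of them was repeat-called. Hspa5, the main chaperone of that compartment, had 609 and 609.9 CPM in NoEp and 671 and 675 CPM in Mock (log2 fold change 0.14, adjusted p = 0.0139). On the list 1 member was called without Mock replicate 1, 0 without Mock replicate 2, 9 without NoEp replicate 1, 0 without NoEp replicate 2 and 1 with the mark bis as a covariate.

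Genes of amino acid synthesis and uptake rose in part. Of 38 tested amino acid genes and targets of ATF4, the transcription factor of amino acid shortage, 12 rose and 0 fell (median 0.15). Asns, the asparagine synthetase, had 19.3 and 20.5 CPM in NoEp and 26.3 and 28.9 CPM in Mock and rose 1.38-fold (log2 fold change 0.47, SE 0.068, adjusted p = 5.26e-05). Psat1, an enzyme of serine synthesis, rose 1.19-fold (adjusted p = 0.000132), Slc7a5, the transporter of large neutral amino acids, 1.202-fold (adjusted p = 0.000133), and Mthfd1l, of mitochondrial folate metabolism, 1.16-fold (adjusted p = 0.0014). These 4 were repeat-called and were also called with the mark bis as a covariate. Neither Atf4 (135 and 130.04 CPM in NoEp and 145 and 142 CPM in Mock, adjusted p = 0.103) nor Ddit3, the gene of the stress factor CHOP (13.2 and 12.7 CPM in NoEp and 12.96 and 11.3 CPM in Mock, adjusted p = 0.706), passed. The list had 7 calls without Mock replicate 1, 6 without Mock replicate 2, 10 without NoEp replicate 1, 8 without NoEp replicate 2 and 4 with the mark.

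Enzymes of glycolysis rose. Of 23 members 11 rose and 0 fell, and with the mark as a covariate 12 rose and 0 fell. The median was 0.15, or 0.30 with the mark. The estimate for the mark came from 2 pairs that differed here: on the log2 scale replicate 1, without the mark, minus replicate 2, with it, was 0.045 in DRIL18 and -0.25 in IL12 for Tpi1, 0.067 and -0.22 for Pgam1 and 0.026 and -0.21 for Ldha. For these 3 genes the larger value with the mark thus rests on the IL12 pair. The summed level was 9191 and 9375 CPM in NoEp and 10477 and 10671 CPM in Mock, higher in both Mock libraries than in both NoEp libraries. Tpi1, the triose phosphate isomerase, had 277 and 277 CPM in NoEp and 342 and 349 CPM in Mock and rose 1.24-fold (log2 fold change 0.32, SE 0.048, adjusted p = 0.000129). Pgam1, the phosphoglycerate mutase, rose 1.23-fold (adjusted p = 0.000303), and Ldha, the lactate dehydrogenase, 1.18-fold (adjusted p = 0.000903). Gapdh had 2308 and 2271 CPM in NoEp and 2579 and 2619.9 CPM in Mock and rose 1.14-fold (adjusted p = 0.000874). Of the 11, 6, among them these 4, were repeat-called, and the rises numbered 7, 7, 8 and 10 in the fits without Mock replicate 1, Mock replicate 2, NoEp replicate 1 and NoEp replicate 2. Of 21 genes of the hypoxia response 1 rose, Bnip3, and 1 fell, Bnip3l, both of which encode mitophagy receptors and neither of which was repeat-called. With the mark 4 rose and 0 fell.

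Lipid synthesis rose in part. Of 34 genes of fatty acid synthesis and desaturation 7 rose and 0 fell. After Fads2 the largest were Scd1, another desaturase (0.46, adjusted p = 0.00263), and Fabp5, a fatty acid binding protein (0.37, adjusted p = 0.000909). Scd1 was not called without Mock replicate 2 (0.39, adjusted p = 0.0784) or without NoEp replicate 1 (0.31, adjusted p = 0.0846), nor Fabp5 without NoEp replicate 2 (0.24, adjusted p = 0.0898). The list had 4, 2, 2 and 3 calls without Mock replicate 1, Mock replicate 2, NoEp replicate 1 and NoEp replicate 2, and 3 with the mark bis as a covariate. Of 30 cholesterol genes 6 rose, with Sqle, the squalene epoxidase, repeat-called at 1.19-fold, and 1 fell, Abca1, which exports cholesterol. The 6 became 3, 1, 2 and 5 in the same fits and 1 with the mark. All 40 nuclear genes of oxidative phosphorylation subunits had a log2 fold change above 0 with a median of 0.074, but only 4 passed, 0 of them repeat-called (0, 1, 5 and 0 in the 4 leave-out fits, taken in the order used above, and 0 with the mark). Of 34 NRF2 and glutathione genes 5 rose and 0 fell, led by the metallothionein Mt1 (1.23-fold, repeat-called), and 1, 3, 5 and 1 rose in the 4 leave-out fits and 1 with the mark.

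Promoters of genes called higher were read for the sites of several transcription factors. The windows ran from 250 bases before to 50 bases after the gene's start (RefSeq, GRCm38.p6). Of 520 protein-coding genes called higher 437 had an entry, and of all 12240 tested protein-coding genes, the called ones included, 9861. The E2F site TTTCGCGC on either strand was in 2.75% of the former and 0.679% of the latter, its second form TTTGGCGC in 2.52% and 1.02%, and the E-box CACGTG, which MYC can bind, in 15.8% and 10%. The shares were 2.29% and 2.26% for the ATF4 and C/EBP element TGATGNAA, and 4.81% and 5.6% for the heat shock element GAANNTTC. They were 1.14% and 1.01% for the SREBP site and 1.83% and 3.36% for the cyclic AMP response element. For the interferon-stimulated response element they were 6.41% and 7.27%. The other motifs read were the FOXO site (0.915% and 2.46%), the KLF site (3.43% and 3.85%) and the PAR bZIP D-box (1.6% and 1.99%). These shares are descriptions without a test and were not matched for level. All genes called higher had a median level of 103.5 CPM, against 14.8 CPM over all tested genes. Of the 525 protein-coding genes called lower 415 (79%) had an entry, under the 80% needed, so a comparison of shares is void for them and none is given. The 5 stretches of 80 bases below belong to named repeat-called rises, a replication factor, a chaperonin subunit, a translation helicase, a mitochondrial chaperonin and a glycolytic enzyme, with an E2F site or an E-box in capitals.
Rfc3 (E2F, chr5:151651209-151651288, minus strand): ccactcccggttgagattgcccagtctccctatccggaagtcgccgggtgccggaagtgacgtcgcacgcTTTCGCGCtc
Cct3 (E2F second form, chr3:88296885-88296964, plus strand): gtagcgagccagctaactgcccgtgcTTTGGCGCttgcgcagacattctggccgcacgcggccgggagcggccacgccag
Eif4a1 (E-box, chr11:69672570-69672649, minus strand): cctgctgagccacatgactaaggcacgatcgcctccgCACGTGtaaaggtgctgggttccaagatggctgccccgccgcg
Hspd1 (E-box, chr1:55088281-55088360, minus strand): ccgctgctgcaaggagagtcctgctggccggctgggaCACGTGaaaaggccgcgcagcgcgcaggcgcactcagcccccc
Ldha (E-box, chr7:46845622-46845701, plus strand): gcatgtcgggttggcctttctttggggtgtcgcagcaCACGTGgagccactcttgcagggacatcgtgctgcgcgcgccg

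Genes that mark resting and memory T cells were lower in electroporated cells. Of 39 members of the naive and memory list 24 fell and 0 rose. Called lower were 3.64% of all genes, and 236 of the 2363 genes over 100 CPM. The median was -0.18, and the summed level was 7784 and 7754 CPM in NoEp and 6886 and 6915 CPM in Mock. Il7r, the receptor for the survival cytokine IL-7, had 236 and 241 CPM in NoEp and 188 and 181 CPM in Mock and fell by 0.37 on the log2 scale (SE 0.037, adjusted p = 2.49e-07). S1pr1, the receptor that lets T cells leave lymphoid organs, had 193 and 183 CPM in NoEp and 152 and 144 CPM in Mock and fell by 0.34 (adjusted p = 7.88e-06). Replicates of a group lay close together for these genes, and both were repeat-called. Tcf7, one of the most abundant, had 1141 and 1141 CPM in NoEp and 1031 and 1013 CPM in Mock (log2 fold change -0.16, adjusted p = 0.0052) and was not called without Mock replicate 1 (adjusted p = 0.0646) or without Mock replicate 2 (0.103). Ccr7, the chemokine receptor of lymph node entry, did not pass (223 and 218 CPM in NoEp and 209 and 201 CPM in Mock, adjusted p = 0.0941). Of the 24, 9 were repeat-called. The count was 11 without Mock replicate 1, 14 without Mock replicate 2, 16 without NoEp replicate 1, 15 without NoEp replicate 2 and 8 with the mark bis as a covariate.

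Growth arrest genes and targets of FOXO and KLF factors were also lower. In this list 17 of 37 fell and 0 rose (median -0.15), and 7 were repeat-called. Klf2 had 115 and 104 CPM in NoEp and 86.8 and 91.7 CPM in Mock and fell by 0.30 (SE 0.051, adjusted p = 0.000435). Pik3ip1, which restrains PI3K, had 61.3 and 62.3 CPM in NoEp and 46.5 and 44.8 CPM in Mock and fell by 0.44 (adjusted p = 1.78e-05), and Ypel3, linked to growth arrest, had 116 and 107 CPM in NoEp and 84.3 and 85.5 CPM in Mock and fell by 0.39 (adjusted p = 7.59e-06). Tsc22d3, the glucocorticoid-induced leucine zipper gene, fell by 0.37 (adjusted p = 0.000337). Klf2 and Pik3ip1 are among 4 called members that also stand on the naive and memory list. The count was 7 without Mock replicate 1, 7 without Mock replicate 2, 7 without NoEp replicate 1, 8 without NoEp replicate 2 and 7 with the mark bis as a covariate.

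Inhibitors of the cell cycle fell in part. Of 21 members 7 fell and 1 rose. Mxd4 and Klf2, counted above in other lists, are among the falls. The antiproliferative genes Btg1 (299.5 and 286 CPM in NoEp and 238 and 238 CPM in Mock) and Btg2 (136 and 132 CPM in NoEp and 104 and 106 CPM in Mock) fell by 0.30 and 0.35 on the log2 scale (adjusted p = 9.4e-06 and 2.04e-05). Cdkn1a, the p53 target that encodes the inhibitor p21, was the member that rose, with 56.7 and 48.8 CPM in NoEp and 63.7 and 59.6 CPM in Mock (log2 fold change 0.23, adjusted p = 0.043). That call was lost without Mock replicate 1 (log2 fold change 0.18, adjusted p = 0.376), without Mock replicate 2 (0.28, 0.0982) and without NoEp replicate 2 (0.12, 0.573), and with the mark (0.11, adjusted p = 0.683). The 7 falls became 4, 5, 4 and 5 in the fits without Mock replicate 1, Mock replicate 2, NoEp replicate 1 and NoEp replicate 2, and 4 with the mark. Among 33 p53 targets 2 rose, Cdkn1a and Gadd45g, and 4 fell, among them Btg2 and Sesn1 (-0.27, repeat-called), with 0 rises and 2 falls with the mark.

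**Figure D4:**
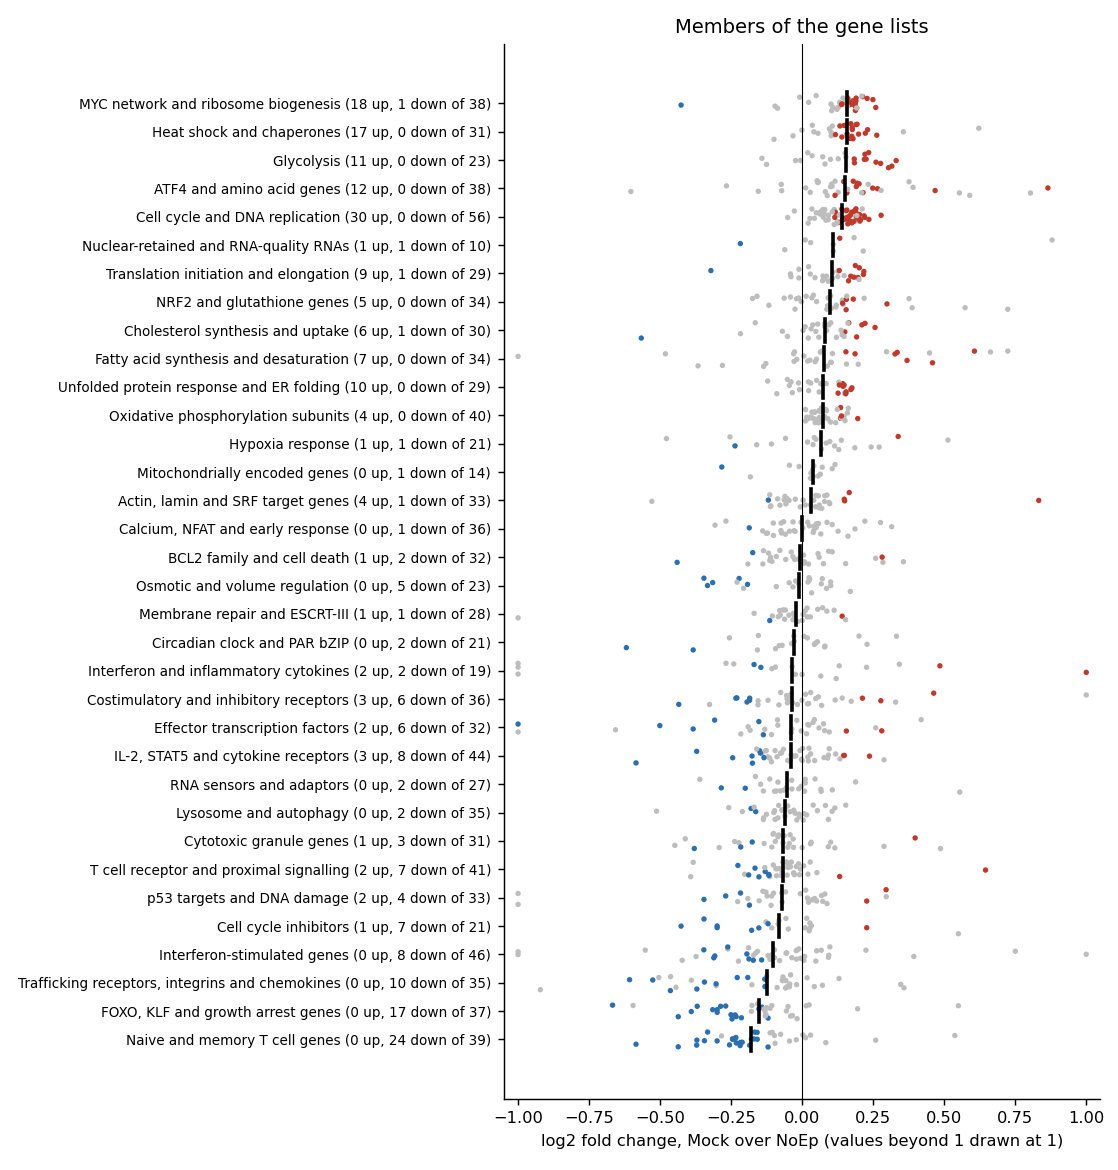
Log2 fold change of Mock over NoEp for each tested member of the 34 pathway lists, ordered by their median (black bar), with called members in red (higher) or blue (lower) and the rest in grey. The MYC, heat shock, glycolysis, ATF4 and cell cycle lists lie at the top with medians of 0.14 to 0.16, and the naive and memory list at the bottom with -0.18.

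Several receptors and adhesion molecules that place T cells in tissue fell. Of 35 trafficking receptors, integrins and chemokines 10 fell and 0 rose (median -0.13), and 6 were repeat-called. Beside Itgae, Ccl5, Ccr2 and S1pr1, these included Itga4, the alpha-4 integrin chain of binding to inflamed endothelium, which had 353 and 370.4 CPM in NoEp and 280.3 and 279 CPM in Mock and fell by 0.37 (adjusted p = 2.49e-07). S1pr1 and Itga4 are counted on the naive and memory list too. The count of falls was 7, 7, 9 and 6 without Mock replicate 1, Mock replicate 2, NoEp replicate 1 and NoEp replicate 2, and 5 with the mark bis as a covariate.

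Among the effector genes, granzyme B rose. Gzmb, the protease of cytotoxic granules, had 1549.5 and 1451 CPM in NoEp and 1970.02 and 1983 CPM in Mock. It rose 1.32-fold (log2 fold change 0.40, SE 0.051, adjusted p = 1.2e-05), the largest gain in CPM of all called genes, was repeat-called, and was called with the mark bis as a covariate (0.32, adjusted p = 0.0211). Of the 31 granule genes it was the 1 that rose, and 3 fell, Gzma (-0.18), Lyst (-0.22) and Serpinb6b (-0.38), none of them repeat-called (1, 2, 2 and 3 falls in the 4 leave-out fits and 0 with the mark). Prf1, the pore-forming perforin, had 12.4 and 11.6 CPM in NoEp and 9.79 and 10.6 CPM in Mock and did not pass (adjusted p = 0.148). Ifng, the gene of interferon gamma, was at 1.38 and 1.36 CPM in NoEp and 0.906 and 1.43 CPM in Mock and did not pass either (adjusted p = 0.605).

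Of 36 costimulatory and inhibitory receptors 3 rose and 6 fell. Tnfrsf9, the activation receptor CD137, had 29.3 and 24.6 CPM in NoEp and 36.4 and 37.7 CPM in Mock and rose 1.38-fold (log2 fold change 0.46, SE 0.071, adjusted p = 0.000131), also with the mark (0.60, adjusted p = 0.000377). Cd226, an adhesion receptor that costimulates cytotoxic cells, had 234 and 239 CPM in NoEp and 200.4 and 202 CPM in Mock and fell by 0.23 (adjusted p = 0.000206). These were the 2 repeat-called members. The 3 rises became 1, 1, 1 and 3 without Mock replicate 1, Mock replicate 2, NoEp replicate 1 and NoEp replicate 2, and the 6 falls 1, 4, 5 and 3, with 1 rise and 2 falls with the mark. The activation marker Cd69 was at 27.3 and 29.6 CPM in NoEp and 30.2 and 29.8 CPM in Mock (adjusted p = 0.602).

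Of 41 genes of the T cell receptor and its proximal signals 2 rose and 7 fell, with repeat calls for Ptpn3, described above, and Dgka, the diacylglycerol kinase that damps these signals. Dgka had 839 and 876 CPM in NoEp and 727 and 740.03 CPM in Mock and fell by 0.23 (adjusted p = 0.000146). Of 44 genes of cytokine receptors and STAT5 signals 3 rose and 8 fell. Il7r, which is counted on the naive and memory list too, was the repeat-called member. Il2ra, the high-affinity IL-2 receptor chain, had 444 and 419.6 CPM in NoEp and 479 and 477 CPM in Mock and rose 1.11-fold (adjusted p = 0.0185), a call kept only without NoEp replicate 1 (largest adjusted p = 0.276, without NoEp replicate 2). Without Mock replicate 1, Mock replicate 2, NoEp replicate 1 and NoEp replicate 2 the falls numbered 1, 3, 4 and 4 among the receptor signals and 2, 4, 4 and 1 among the cytokine receptors. With the mark they numbered 1 and 2.

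Some of the largest fold changes were of genes at low levels. Of 32 effector transcription factors 2 rose and 6 fell, none repeat-called. Hlx had 0.345 and 0.529 CPM in NoEp and 0.113 and 0.149 CPM in Mock (log2 fold change -1.73, adjusted p = 0.0412) and was not called without Mock replicate 1, Mock replicate 2 or NoEp replicate 2. Ikzf2, which encodes Helios, had 28.005 and 26.998 CPM in NoEp and 18.2 and 20.7 CPM in Mock (log2 fold change -0.50, adjusted p = 0.000537, and 0.0542 without Mock replicate 1). The 6 falls became 1, 1, 3 and 3 in the 4 leave-out fits, taken in the order used above, and with the mark 1 member rose and 2 fell. Of 19 cytokine genes 2 rose and 2 fell. Il10 had 0.597 and 0.223 CPM in NoEp and 1.075 and 0.803 CPM in Mock (log2 fold change 1.23, adjusted p = 0.0194), with 0.66 (adjusted p = 0.431) without NoEp replicate 2 and 1.01 (adjusted p = 0.26) without Mock replicate 1. Tnfsf11, the gene of RANKL, had 7.85 and 8.13 CPM in NoEp and 10.95 and 11.4 CPM in Mock and rose 1.40-fold (adjusted p = 0.00745), which no leave-out fit called.

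No gene on the lists of RNA sensing and of interferon-stimulated genes was called higher in electroporated cells in the fit of all 10 libraries. Genes off these lists are not counted here. Among them Ifi213 fell (log2 fold change -0.46) and Gm4951 rose (0.42). Of 27 RNA sensors and their adaptors 0 rose and 2 fell, both repeat-called. These were Ikbke, a kinase of the interferon pathway (208 and 212 CPM in NoEp and 172 and 172 CPM in Mock, log2 fold change -0.28, adjusted p = 1.6e-05), and Samhd1, a nucleotide hydrolase (880.04 and 877 CPM in NoEp and 765 and 764 CPM in Mock, log2 fold change -0.20, adjusted p = 0.000483). Unc93b1, which carries Toll-like receptors to endosomes and is named here after its values were seen, had 40.4 and 45.5 CPM in NoEp and 47.9 and 50.1 CPM in Mock (log2 fold change 0.19, adjusted p = 0.0631). It was called higher in 2 other fits, without NoEp replicate 2 and with only the 4 libraries. The falls of the list numbered 2, 2, 2 and 3 in the 4 leave-out fits and 1 with the mark. Eif2ak2, which encodes the double-stranded RNA sensor PKR, had 46.5 and 47.2 CPM in NoEp and 49.5 and 48.6 CPM in Mock and did not pass (log2 fold change 0.067, SE 0.054, adjusted p = 0.553). Of 46 interferon-stimulated genes 0 rose and 8 fell, with a median of -0.10, and 3 were repeat-called. Isg15 (4.24 and 3.59 CPM in NoEp and 3.11 and 2.71 CPM in Mock, adjusted p = 0.168) and Ifit1 (2.76 and 2.92 CPM in NoEp and 2.58 and 2.29 CPM in Mock, adjusted p = 0.628) lay at a few CPM and did not pass. The 8 falls became 3 without Mock replicate 1, 4 without Mock replicate 2, 4 without NoEp replicate 1, 4 without NoEp replicate 2 and 3 with bis as a covariate.

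The repeat-called falls of that list were all Ifi200 genes, a cluster of paralogs. Ifi209 had 312 and 306 CPM in NoEp and 242 and 245 CPM in Mock and fell by 0.35 (SE 0.036, adjusted p = 4.82e-07). Ifi208 fell by 0.31 (adjusted p = 0.000194) and Ifi206 by 0.26 (adjusted p = 0.000133), and Ifi213, which is not on the list, had 76.5 and 80.2 CPM in NoEp and 55.3 and 58.7 CPM in Mock and fell by 0.46 (adjusted p = 2.34e-06). The sources used here do not give how reads that match several paralogs were counted, so the 4 values may share reads. The promoters of 3 of them are printed because they hold the same stretch, with the FOXO site GTAAACA or its reverse complement in capitals, as does that of Btg1. Between Ifi206 and Ifi208 79 of 80 bases were identical, between Ifi208 and Ifi213 78, and between Ifi206 and Ifi213 77, so these matches are not independent. The 4 are shown for holding the site, which 2.46% of all 9861 promoters hold, and nothing is read from that share.
Ifi206 (chr1:173491355-173491434, minus strand): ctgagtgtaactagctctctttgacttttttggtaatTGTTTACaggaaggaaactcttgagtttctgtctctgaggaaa
Ifi208 (chr1:173673531-173673610, plus strand): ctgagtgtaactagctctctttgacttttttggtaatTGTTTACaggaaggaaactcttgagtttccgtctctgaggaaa
Ifi213 (chr1:173599342-173599421, minus strand): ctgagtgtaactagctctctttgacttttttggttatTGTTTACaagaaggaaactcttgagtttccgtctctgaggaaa
Btg1 (chr10:96616760-96616839, plus strand): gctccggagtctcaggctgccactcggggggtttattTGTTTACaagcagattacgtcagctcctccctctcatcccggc

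Genes of membrane repair, calcium signals and cell death held few calls. Of 28 genes of membrane repair and ESCRT-III 1 rose, the calpain subunit Capn2 (0.14), and 1 fell, S100a10 (-0.11), and of 36 genes of calcium, NFAT and early response signals 0 rose and 1 fell. Neither list had a repeat call. Of 23 genes of osmotic and volume regulation 5 fell and 0 rose. Its repeat call was Slc12a7, a potassium chloride cotransporter, with 154 and 157 CPM in NoEp and 123 and 121 CPM in Mock (log2 fold change -0.35, adjusted p = 4.07e-06), and 1, 2, 3 and 1 members fell without Mock replicate 1, Mock replicate 2, NoEp replicate 1 and NoEp replicate 2, and 1 with the mark. Of 33 actin, lamin and SRF target genes 4 rose and 1 fell, with Lmna as the repeat call (1, 3, 3 and 1 rises in the same fits, and 0 with the mark). Of 32 BCL2 family and cell death genes 1 rose, the necroptosis gene Mlkl (0.28), and 2 fell, Bmf (-0.44) and Cflar (-0.17), with no repeat call. Of 35 lysosome and autophagy genes 2 fell, and of 21 clock genes 2 fell. In the osmotic list 21.7% fell, against 3.64% of all genes called lower, and in the actin list 12.1% rose, against 3.34% called higher. Of the 2363 genes over 100 CPM 273 were called higher and 236 lower, which is the nearer share for abundant genes. The 33 actin genes summed to 27930 and 27506 CPM in NoEp, and the 23 osmotic genes to 3041 and 3047 CPM. The other lists of this paragraph had at most 2 members called in a direction. Genes with early and brief responses to the pulse were measured 24 h after it only.

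The largest shifts in CPM were in abundant transcripts. The 8 largest gains in mean CPM among called genes were Gzmb, Gapdh, Hsp90ab1, Tubb5, Rps2, Eno1, Ldha and Pkm, that is a granzyme, 4 glycolytic enzymes, a chaperone, a tubulin and a ribosomal protein. Several of these have processed pseudogenes that can share reads with them. Hsp90ab1, the constitutive HSP90, had 2342 and 2279 CPM in NoEp and 2653 and 2579 CPM in Mock (log2 fold change 0.18, adjusted p = 0.00099). The 8 largest losses were H2-K1, Arhgap45, Gimap3, Chd3, Dgka, Ms4a4b, Tcf7 and Samhd1. H2-K1, a class I molecule, had 2457 and 2387 CPM in NoEp and 2252 and 2251 CPM in Mock (log2 fold change -0.11, adjusted p = 0.0479), a call that no leave-out fit kept. Chd3, a chromatin remodeller, had 643 and 632 CPM in NoEp and 509 and 505 CPM in Mock and fell by 0.33 (adjusted p = 1.46e-06), and Gimap3, a GTPase of lymphocyte survival, had 902 and 912 CPM in NoEp and 752 and 764 CPM in Mock and fell by 0.26 (adjusted p = 2.64e-05). Chd3, Gimap3, Arhgap45, Dgka and Samhd1 were repeat-called.

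Markers of other cells that spleen cultures can hold were measured beside these genes. In bulk RNA, fewer cells of a type and less RNA per cell cannot be told apart. The 20 B cell markers summed to 739 and 738 CPM in NoEp and 722 and 727 CPM in Mock. Of the 20, 14 had a log2 fold change below 0, with a median of -0.20 (-0.24 to -0.18 in the 4 leave-out fits and -0.13 with the mark), and 2 were called lower, Igkc among them. The plasma cell markers summed to 148 and 135 CPM in NoEp and 152 and 154 CPM in Mock, most of it Xbp1, and 6 of 8 tested had a log2 fold change below 0. Among them Jchain (1.22 and 1.25 CPM in NoEp and 0.311 and 0.446 CPM in Mock) and Ighg2b (0.816 and 0.418 CPM in NoEp and 0.142 and 0.119 CPM in Mock) were called lower at very low levels and were lost in at least 3 leave-out fits each. The 20 macrophage and monocyte markers summed to 109 and 122 CPM in NoEp and 79.3 and 84.04 CPM in Mock, most of it Ccr2, which T cells also express, and 6 of them, with C1qa, Marco and Mertk, were at 0 in all 4 libraries. All 14 neutrophil markers stayed under 1 CPM. Of 10 tested gamma-delta T cell markers 4 were called lower, led by Tcrg-C1 (21.7 and 19.04 CPM in NoEp and 14.97 and 14.04 CPM in Mock, log2 fold change -0.49), and the list summed to 170.4 and 163 CPM in NoEp and 138 and 142 CPM in Mock. None was repeat-called, and 1, 1, 1 and 3 were lower in the 4 leave-out fits and 0 with the mark. Of 13 tested dendritic cell markers 1 rose, Irf8, and 1 fell, Cd74 (-0.38, repeat-called). The natural killer cell markers summed to 751 and 749.6 CPM in NoEp and 695 and 693 CPM in Mock, with Gzma as the 1 called lower, and the CD8 T cell markers to 12046 and 11491 CPM in NoEp and 11872 and 11688 CPM in Mock. The part of any of these cells in the changes above was not tested.

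The levels in the 3 cytokine groups are given beside these for some of the genes that carried the description. They share the Mock libraries as the common control of the study and are set side by side without a test. Gzmb averaged 1500.3 CPM in NoEp, 1976 in Mock, 1767 in DRIL18, 2097 in IL12 and 1349 in the mixture, so its mixture level was below that of NoEp. Tnfrsf9 averaged 26.9, 37.04, 77.7, 96.1 and 331 CPM in the same order, and Asns 19.9, 27.6, 42.5, 38.8 and 119 CPM. Mock lay between NoEp and all 3 cytokine groups for Tnfrsf9 and Asns, and also for Tpi1 (277, 345, 552, 934 and 1262 CPM). Itgae averaged 265, 192, 141, 7.30 and 2.29 CPM, and Klf2 109.9, 89.3, 57.9, 30.6 and 7.21 CPM, with the lowest value in the mixture for both. Il7r broke the order, with 238, 184, 189.7, 223 and 93.6 CPM, since DRIL18 and IL12 lay above Mock. Ccl5 also broke it, with 28.2, 18.5, 23.0, 6.47 and 4.19 CPM, since DRIL18 lay above Mock. Btg1 (293, 238, 224, 689 and 282 CPM) and Ccr2 (107, 74.2, 32.7, 118 and 31.3 CPM) lay above Mock in IL12, and Btg1 in the mixture too. How many of the called genes keep the order was not counted.

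**Figure D5:**
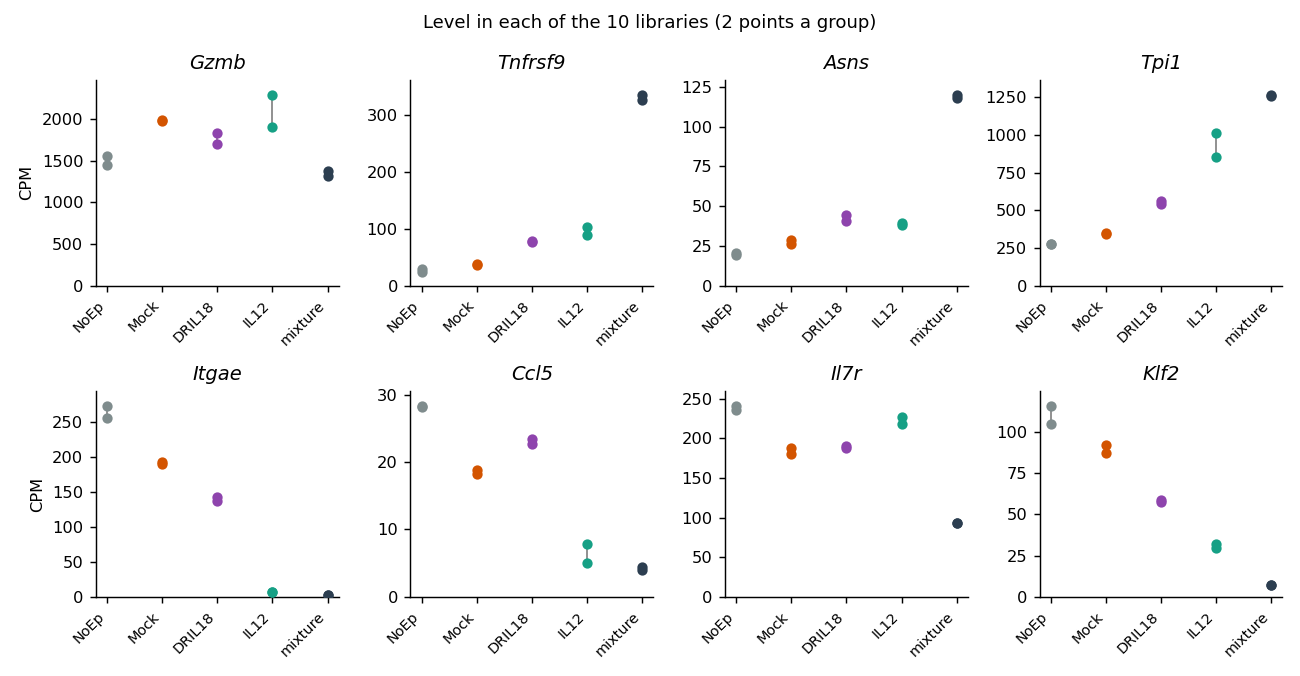
CPM of 8 genes in each of the 10 libraries (vertical axes from 0, 2 points a group, joined by a line). The step from NoEp to Mock is larger than the spread of either pair for all 8 genes, and smaller in size than the difference between Mock and the mixture, which for Gzmb has the opposite direction.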

How the data were processed

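RNA of 10 libraries was measured by bulk sequencing after a stranded mRNA kit, and the 4 Mock and NoEp libraries are compared here. Per the submitters' processing notes, the authors used STAR 2.7.9 for alignment, mm39 as the mouse build and featureCounts for counting, with edgeR and limma as further tools. The deposited counts are unscaled whole numbers, 1 for each read assigned to a gene. The deposited log2 values are log2 CPM of 13225 genes, and they equal limma voom of the counts with TMM factors, with a largest difference of 5e-14. The sources used here do not give the annotation, the strand setting or the handling of reads with several alignments. Libraries held 31281944 to 35062545 counts, and this depth bounds the precision at low levels.

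All 10 libraries were fitted together in edgeR 4.0.16 (R 4.3.3) with 5 group means, TMM factors (0.955 to 1.03) and filterByExpr, which kept 15777 genes. Mock was tested against NoEp with the quasi-likelihood F test on 5 residual degrees of freedom, adjusted by Benjamini-Hochberg over all tested genes. Beyond counting noise, replicates varied by 3.39% (common coefficient of variation). CPM use TMM-scaled library sizes. Symbols came from GENCODE M21, which matched 52083 identifiers and left 3276 unmatched. Promoters came from RefSeq for GRCm38.p6, a build other than that of the counts, so coordinates are those of that table only. On simulated counts of 15534 genes for this comparison the test found 42% of the genes changed 1.15-fold and 90% of those changed 1.3-fold. At 1.5-fold it found 98%, at 2-fold it found 100%, and 5 of 170 calls were false. The changed genes had at least 5 CPM, the simulated spread depended on level only, and no effect of the mark bis was put in. The real data can differ in each of these, so the rates do not carry over to the calls above.

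The 34 pathway lists and 13 marker lists (1240 genes) and all choices were made with earlier results of these data known. On more than 1 pathway list stand 49 genes, so the counts of different lists are not independent. Named genes are the 12 largest rises and 12 largest falls among genes called in the fit and in all 4 leave-out fits with separate libraries and at least 5 CPM in the higher group, the 8 largest gains and losses in mean CPM, up to 5 called members of each list by size of change, and 22 genes fixed by name. Some genes that this rule names are not reported here. Alternatives were the removal of each library, other size factors, other filters, the 4 libraries alone, the replicate number as a block, the mark bis, limma-voom 3.58.1, limma-trend on the deposited values and DESeq2 1.42.0. The replicate numbers did not pair the libraries: the replicate differences of Mock and NoEp correlated at 0.021 over 7675 genes. Replicates of each group differed by more than counting noise, which does not show that they came from separate animals or cultures. Each library was counted as a sample on the basis of the labels, which number biological replicates.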

Additional observations from a re-analysis of the deposited data

How the results depend on the processing

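Leaving out 1 of the 10 libraries gave between 242 and 1399 calls, between 111 and 709 of them higher and between 131 and 690 lower. The fewest in each were without Mock replicate 1 and the most without IL12 replicate 2. With the mark bis as a covariate there were 172 calls (64 higher, 108 lower), and with bis and a replicate block 121 (58 higher, 63 lower). With a replicate block alone there were 1103 calls (536 higher, 567 lower), of which 1061 were among the 1102; since the labels give only a number and the replicate differences of Mock and NoEp correlated at 0.021, this pairing has no support in the design. The other settings (size factors, filters, the 4 libraries alone, limma-voom, limma-trend and DESeq2) gave 943 to 1589 calls, within 1.5 times of 1102. All 1102 genes kept their sign under every setting in which they had a value, apart from 1 gene with bis and the block. Over the 182 named genes and 20 settings, 3036 values stayed on their side of the threshold, 585 lost the call, 3 gained it and 6 reversed. The 6 were of genes that did not pass: Cd69 (-0.049 with bis, -0.072 with bis and the block), Ddit3 (0.062 with bis and the block, and -0.19 to 0.0076 without 1 library), Ifit1 (0.064 with bis and the block) and Ifng (-0.59 to 0.061 without 1 library). The cause was not tested. With 2 libraries a group, changes under 1.3-fold were often missed in simulated counts, and genes under 1 CPM were rarely called.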

Other observations

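Calls were also counted by gene class. Of 1387 long non-coding RNAs tested 5 were called higher and 29 lower, against 520 and 525 of 12240 protein-coding genes. Of 1392 pseudogenes 2 were higher and 6 lower, and of 758 genes of other classes 0 and 15. The classes come from GENCODE M21, and their levels differ from those of coding genes.

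Calls differed with transcript length. This split was chosen after seeing the data. Among protein-coding genes with a mean over 4 CPM, split into 4 equal groups by exon length, the shortest group (median 2149 bases) had 157 called higher and 87 lower, the next 141 and 106, the next 110 and 152, and the longest (median 9339.5 bases) 102 and 169. The median log2 fold change ran from 0.024 in the shortest group through 0.012 and -0.003 to -0.014 in the longest. Lengths are of merged exons on GRCm38. The part of transcript length in the list counts of the report was not tested.

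Of 10 nuclear-retained and other RNAs read as signs of RNA quality 8 had a log2 fold change above 0, with a median of 0.11 (0.095 to 0.12 in the 4 leave-out fits and 0.089 with the mark bis). In this list 1 rose, Gas5 (0.13), which no leave-out fit called (adjusted p = 0.079 to 0.282), and 1 fell, Neat1 (210.2 and 255 CPM in NoEp and 203 and 197 CPM in Mock, log2 fold change -0.22, adjusted p = 0.03), which was called in 1 of the 4 leave-out fits, without NoEp replicate 1, and was at -0.072 without NoEp replicate 2 (adjusted p = 0.708). Of 14 mitochondrially encoded genes 0 rose and 1 fell, the ribosomal RNA mt-Rnr1 (339 and 345 CPM in NoEp and 268 and 295 CPM in Mock, log2 fold change -0.28, adjusted p = 3.5e-05), in all leave-out fits.

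Among the remaining marker lists, CD4 and regulatory T cell genes had 1 of 14 higher (Il2ra) and 2 lower (Ikzf2 and Ctla4), and stromal and endothelial genes 1 of 6 lower, Pecam1 (-0.21), with 6 defining markers such as Cdh5 and Dcn at 0 counts in all 4 libraries. The erythroid, platelet and mast cell, and sex-linked lists had 0 called of 3, 6 and 4 tested members.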
